A study of Homo sapiens with 10 samples.

Results

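The genes PLA2G2A, LRRN1, TMEM47, SULT1C2, LURAP1L, SLC16A4, CELF2 and KHDRBS3, were followed across cultures of DLD-1, an established line from a human colorectal adenocarcinoma. They were chosen because their array signal was lower in cells with either of the 2 short hairpin RNA (shRNA) constructs against LMNB1 than in empty vector clones, and for most of them lower in wild type cells too. These are 8 of 11198 genes tested, out of 14232 with a probe annotated to 1 gene, and each has 1 such probe. The choice rests on the same arrays that are described here, so the distance between the empty vector clones and the other cultures is given as a description with no test. The choice did not use how the 3 empty vector clones differ among themselves, and how related and neighbouring genes behave. It did not use the difference between the constructs as such, though the levels of both constructs had a part in it.

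The first hairpin construct, V2LHS_62673, is represented by single cell clones 8, 9 and 12, with 1 array each. The second, V2LHS_62675, is represented by 3 arrays that the sample descriptions and the design text assign to repeats of 1 clone, number 2, while the titles write clone 12. The arrays were averaged as 1 clone. Wild type cells, with no vector, have 1 array, and the empty vector, which carries no hairpin, has 3 clones with 1 array each. The titles call these 3 arrays biological replicates and give no clone number. The numbers used here for the empty vector clones are those of the replicates. All cultures had the same serum content. The hairpin and empty vector cultures were kept under puromycin, labelled as 2 mg per ml, and wild type cells were not. Drug and vector thus cannot be told apart in the comparisons with wild type cells. Each clone descends from 1 cell, and the sources used here do not give the promoter of the vectors. Where nothing else is said, a level is the log2 signal of 1 probe as deposited, and the clone-level samples number 8.

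The 8 genes belong to no single pathway. As background, PLA2G2A encodes a secreted phospholipase A2, an enzyme that cuts fatty acids from membrane phospholipids and kills bacteria, and in mice its counterpart modifies the number of intestinal polyps. SULT1C2 encodes a cytosolic sulfotransferase, which moves sulfate onto phenolic compounds from a nucleotide donor. SLC16A4 belongs to the monocarboxylate transporter family, whose best known members carry lactate and pyruvate. LRRN1 and TMEM47 encode membrane proteins, the first with extracellular leucine-rich repeats and known from neurons, the second related to PMP22 and the claudins of cell junctions. LURAP1L is a paralog of LURAP1, an adaptor of myotonic dystrophy kinase-related CDC42-binding kinases (MRCK). CELF2 and KHDRBS3 encode RNA-binding proteins that act in alternative splicing.

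The promoter windows of the 4 genes with the largest mean difference from the empty vector clones are printed here. These genes were lower together in 3 kinds of culture, and a reader may want to compare their start regions. The window of LRRN1 is rich in CG dinucleotides, and the other windows printed hold few. Each runs from 250 bases before to 50 bases after the annotated start, 5′ to 3′ on the gene's strand, from RefSeq on GRCh38.p14, with CG dinucleotides in capitals. For PLA2G2A, which has several annotated starts, the first listed is shown.
SULT1C2, chr2:108288645-108288944, plus strand: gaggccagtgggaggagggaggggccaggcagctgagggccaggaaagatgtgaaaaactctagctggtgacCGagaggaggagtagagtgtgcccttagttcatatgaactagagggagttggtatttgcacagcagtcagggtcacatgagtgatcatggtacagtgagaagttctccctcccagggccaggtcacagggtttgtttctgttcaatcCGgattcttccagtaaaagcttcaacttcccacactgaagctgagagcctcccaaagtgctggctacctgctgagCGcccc
PLA2G2A, chr1:19979610-19979909, minus strand: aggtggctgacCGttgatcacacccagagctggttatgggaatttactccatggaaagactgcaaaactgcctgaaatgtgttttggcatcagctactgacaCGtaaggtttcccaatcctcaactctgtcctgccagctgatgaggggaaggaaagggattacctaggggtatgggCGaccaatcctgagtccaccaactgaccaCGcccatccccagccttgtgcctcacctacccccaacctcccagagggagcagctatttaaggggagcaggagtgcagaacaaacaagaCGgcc
SLC16A4, chr1:110390977-110391276, minus strand: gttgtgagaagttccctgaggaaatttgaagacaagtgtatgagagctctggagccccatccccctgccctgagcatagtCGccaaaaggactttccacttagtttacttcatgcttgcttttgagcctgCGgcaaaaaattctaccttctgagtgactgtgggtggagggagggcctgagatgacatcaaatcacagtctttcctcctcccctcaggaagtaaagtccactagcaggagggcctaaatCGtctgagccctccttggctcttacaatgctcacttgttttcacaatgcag
LRRN1, chr3:3799181-3799480, plus strand: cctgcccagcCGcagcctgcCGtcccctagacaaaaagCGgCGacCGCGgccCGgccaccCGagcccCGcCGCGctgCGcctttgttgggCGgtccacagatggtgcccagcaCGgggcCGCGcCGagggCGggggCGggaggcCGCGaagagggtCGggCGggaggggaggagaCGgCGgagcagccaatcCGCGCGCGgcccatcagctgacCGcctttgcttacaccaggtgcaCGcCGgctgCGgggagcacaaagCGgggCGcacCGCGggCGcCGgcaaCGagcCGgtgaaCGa
Of the 8 genes, 7 had a window. CG occurred 42 times in the window of LRRN1 and 45 times in that of TMEM47, more than in 94.2% and 96.5% of the 35116 windows of this length. It occurred 3 times in SULT1C2, 5 in PLA2G2A, 3 in SLC16A4 and 5 in LURAP1L, against a median of 14 and a lower quartile of 4 over all windows. CELF2 ranged from 5 to 54 over its annotated starts. On either strand of the first listed windows, CCAAT was found in 2 of the 7 genes, PLA2G2A and LRRN1, and occurs in 34.6% of all windows. TATAAA was found in 1, LURAP1L, and occurs in 11.5%. CACGTG (7.26% of windows) and TGACTCA (4.95%) were found in none. The first listed windows thus held none of these 4 motifs in common.

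The arrays carried the marks of a colorectal epithelial line. EPCAM and KRT8 lay above at least 95.6% and 98.5% of all probes on every array, and 8 of 10 epithelial markers were above the array median throughout. The leukocyte marker PTPRC lay above at most 5.61% of probes and the fibroblast marker DCN above at most 7.63%, while other markers of these cells read higher, with COL1A1 above 49.9% to 65.8%, COL1A2 above 42.7% to 57.4% and the endothelial ENG above 43.8% to 55.0%. No fibroblast or endothelial marker, of 8 and 6, was above the median on every array, and 1 of 6 leukocyte markers was, the macrophage gene CD68. The array of clone 8 was unlike the rest. Over all 22011 probes it correlated at 0.915 to 0.926 with any other array, while the others correlated at 0.986 to 0.994 among themselves, and its median was 7.62 against 7.34 to 7.41. Results are therefore given with and without it. The signal of the probe for LMNB1, which the annotation shares with PCIF1, was 7.79, 7.70 and 7.45 in clones 8, 9 and 12 and 7.72, 7.72 and 7.56 on the arrays of clone 2, against 9.52 in wild type cells and 8.93, 9.17 and 8.84 in the empty vector clones. Every hairpin array lay below every control array.

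PLA2G2A, the secreted phospholipase, had levels of 7.07, 7.24 and 6.64 in clones 8, 9 and 12 of V2LHS_62673 and 6.59, 6.43 and 6.25 on the 3 arrays of V2LHS_62675, with 7.15 in wild type cells, against 9.01, 9.11 and 8.61 in the empty vector clones. The empty vector clones lay apart from all other cultures by 1.36, the distance between their lowest array and the highest other one, and wild type cells stood among the hairpin clones. The mean of the other 3 groups minus that of the empty vector clones was -2.05 (SE 0.21), or 4.15-fold, and -2.07 (SE 0.16) without clone 8. In bulk RNA, fewer cells with a transcript and less of it per cell cannot be told apart.

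SULT1C2, the sulfotransferase, had levels of 7.61, 8.64 and 7.89 in clones of V2LHS_62673, 6.93, 6.80 and 6.60 in V2LHS_62675 and 7.36 in wild type cells, against 9.05, 9.67 and 9.75 in the empty vector clones. Here the clone-level samples of the low groups were themselves spread over 1.86 log2 units, with clone 9 coming within 0.40 of the lowest empty vector clone. The other 3 groups minus empty vector gave -2.09 (SE 0.29), or 4.27-fold, and -2.02 (SE 0.20) without clone 8.

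SLC16A4, of the monocarboxylate transporter family, had levels of 7.05, 6.80 and 6.62 in clones of V2LHS_62673 and 6.94, 7.17 and 6.90 in V2LHS_62675. Its level was 6.19 in wild type cells, against 7.61, 8.96 and 9.08 in the empty vector clones. Wild type cells had the lowest level of all, and empty vector clone 1 lay nearer to the hairpin clones than to the other empty vector clones. The difference was -1.88 (SE 0.36), or 3.68-fold, -1.92 (SE 0.29) without clone 8 and -2.35 without empty vector clone 1.

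LRRN1, the leucine-rich repeat protein, had levels of 5.87, 5.59 and 5.95 in clones of V2LHS_62673, 5.96, 5.66 and 5.70 in V2LHS_62675 and 5.66 in wild type cells, against 7.80, 7.48 and 7.58 in the empty vector clones. It had the tightest groups relative to their distance: the other 5 clone-level samples spanned 0.36, the empty vector clones 0.32, and the gap between them was 1.52. Outside the empty vector clones all 5 samples lay under the filter level of 5.96, above 19.2% to 25.4% of probes on their arrays, so LRRN1 was tested only through its level in the empty vector clones. No detection call was used here, and such levels may be background. The difference was -1.87 (SE 0.16), or 3.66-fold, and -1.88 (SE 0.11) without clone 8.

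TMEM47, the junctional membrane protein, had levels of 7.40, 6.63 and 6.42 in clones of V2LHS_62673, 6.17, 6.43 and 5.87 in V2LHS_62675 and 7.28 in wild type cells, against 8.68, 7.96 and 7.64 in the empty vector clones. The arrays did not overlap, but clone 8 came within 0.24 of the lowest empty vector clone and wild type cells stood just below clone 8. The difference was -1.34 (SE 0.32), or 2.53-fold, and -1.44 (SE 0.20) without clone 8.

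LURAP1L, the LURAP1 paralog, had levels of 7.57, 7.87 and 7.46 in clones of V2LHS_62673, 6.87, 7.34 and 7.12 in V2LHS_62675 and 7.14 in wild type cells, against 8.32, 8.54 and 9.04 in the empty vector clones. Wild type cells and V2LHS_62675 lay together at the bottom. The difference was -1.34 (SE 0.21), or 2.53-fold, and -1.33 (SE 0.16) without clone 8.

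The RNA-binding genes showed the smallest distances. KHDRBS3 had levels of 8.00, 8.04 and 7.84 in clones of V2LHS_62673, 7.83, 7.94 and 7.86 in V2LHS_62675 and 8.11 in wild type cells, against 8.91, 9.05 and 8.64 in the empty vector clones. All clone-level samples other than the empty vector clones fitted within 0.27 log2 units. The difference was -0.88 (SE 0.15), or 1.84-fold, and -0.89 (SE 0.11) without clone 8. CELF2 had levels of 6.61, 6.23 and 5.92 in clones of V2LHS_62673, 6.26, 6.12 and 5.91 in V2LHS_62675 and 6.21 in wild type cells, against 6.93, 6.82 and 6.86 in the empty vector clones. Its highest value outside the empty vector clones was in clone 8, whose dim probes read high as a whole, with a 25th percentile of 6.32 against 5.82 to 5.96 on the other arrays. Clone 8 was the highest sample outside the empty vector clones for 2 of the 8 genes, TMEM47 and CELF2, and for 51.9% of all genes. The difference was -0.68 (SE 0.19) with clone 8 and -0.74 (SE 0.09) without it.

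**Figure D1:**
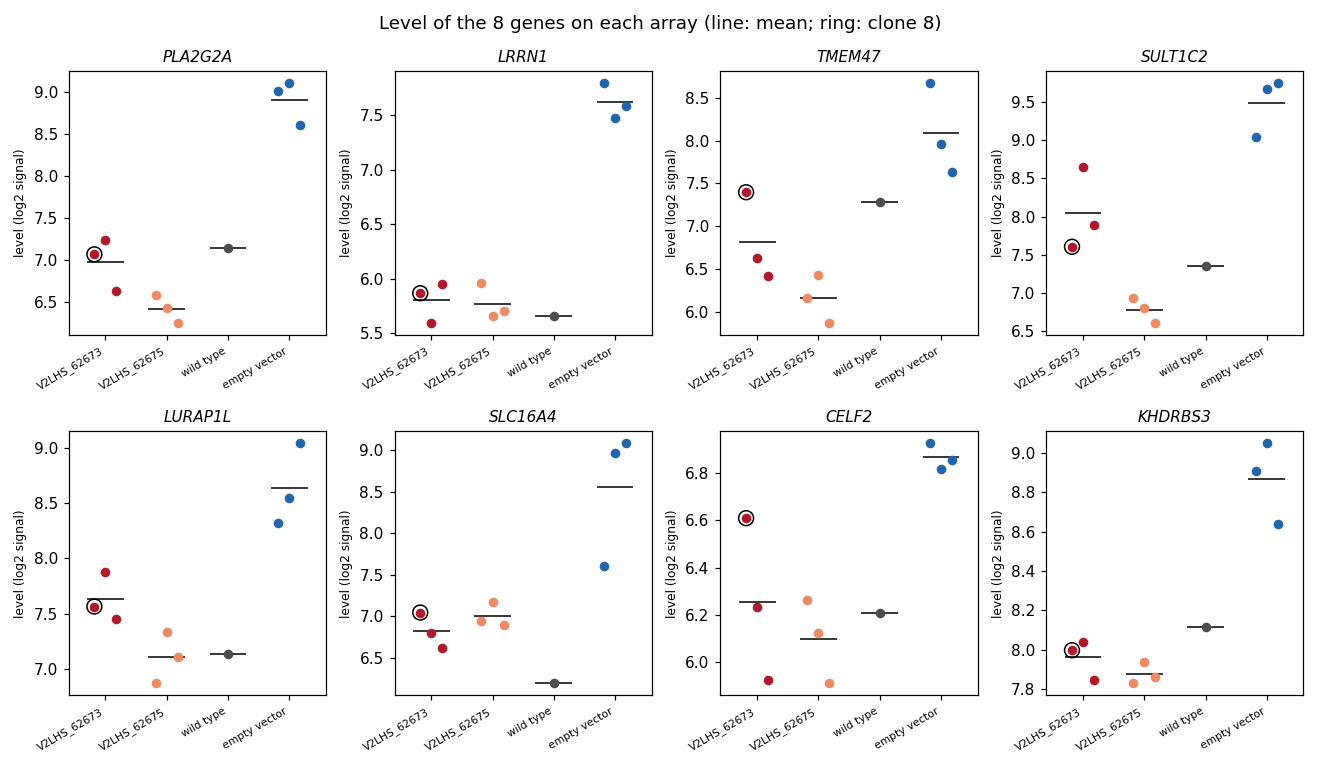
Log2 level of each of the 8 genes on all 10 arrays (vertical axis), by group (horizontal axis: construct V2LHS_62673, construct V2LHS_62675, wild type, empty vector). Points are arrays, lines are group means and the ring marks clone 8. In each panel the 3 empty vector arrays lie above the other 7, by 1.52 for LRRN1 and 0.21 for CELF2.

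The empty vector clones were the group that departed from the others. For all 8 genes the 3 empty vector arrays lay above the other 7, a pattern found in 2.82% of the tested genes. In all 8 the empty vector mean was also the one farthest from the mean of the other 3 group means. The margin was narrowest for TMEM47, where this departure was 1.34 for the empty vector and -1.24 for V2LHS_62675. Over all genes the farthest group was V2LHS_62673 in 53%, V2LHS_62675 in 12.1%, wild type in 16.7% and the empty vector in 18.2%. Without clone 8 the farthest group was the empty vector in 25.6% of genes, V2LHS_62673 in 25.1%, V2LHS_62675 in 21.9% and wild type in 27.5%, and for the 8 genes it was again the empty vector in 8 of 8. Since the choice of genes used this contrast, nothing is read from these counts. Wild type cells lay above both constructs in 3 of the 8 genes, PLA2G2A, TMEM47 and KHDRBS3, and in 25.9% of all genes. They lay below both in SLC16A4 and in LRRN1, whose levels there may be background. The share of all genes below both was not counted. The level of wild type cells exceeded the mean of the other 3 groups in 1 gene, TMEM47, by 0.26. The median difference, other 3 groups minus empty vector, was -1.61 over the 8 genes and 0.03 over all genes tested.

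Given per group against the same empty vector arrays, so that the 3 differences are not independent, PLA2G2A stood at -1.92 (SE 0.22) in V2LHS_62673, -2.48 (SE 0.31) in V2LHS_62675 and -1.76 (SE 0.31) in wild type cells. LRRN1 stood at -1.81, -1.85 and -1.96 in the same groups, whose levels all lay under the filter level and may be background. SULT1C2 stood at -1.44, -2.71 and -2.13, and TMEM47 at -1.28, -1.94 and -0.81. For TMEM47 wild type cells were the group nearest to the empty vector clones. SLC16A4 stood at -1.73, -1.55 and -2.36, with the largest distance in the cells that carry no vector.

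**Figure D2:**
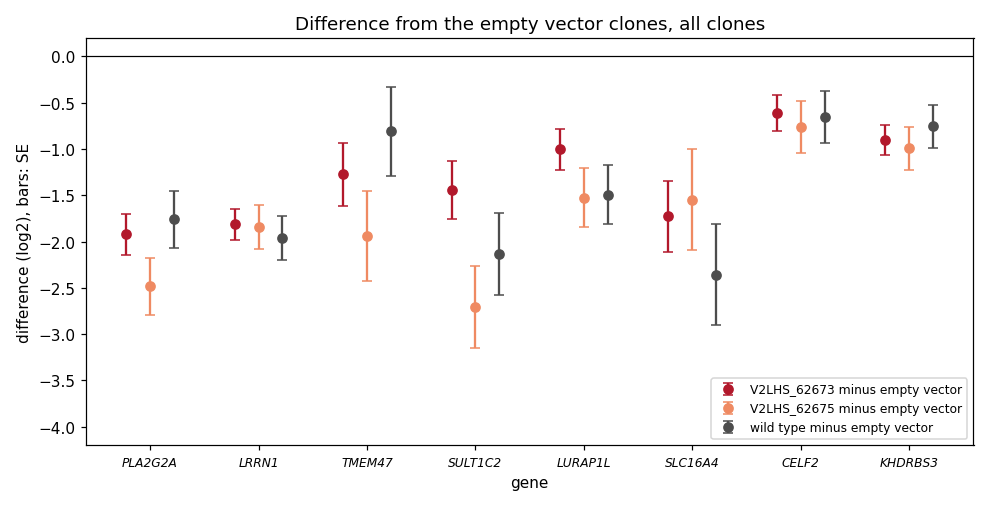
Difference of each group's mean from the mean of the 3 empty vector clones (vertical axis, log2, bars are SE of the limma fit with all clones) for the 8 genes (horizontal axis). All differences lie below 0, from -2.71 for SULT1C2 in V2LHS_62675 to -0.61 for CELF2 in V2LHS_62673, and they share the empty vector arrays.

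The next comparison set the hairpin cells against wild type cells. The contrast was the mean of both constructs minus wild type cells, fitted with limma over all genes with Benjamini-Hochberg adjustment. None of the 8 genes passed with all clones or without clone 8. Over all genes 0% passed with all clones, where 67 genes (0.598%) had an unadjusted p under 0.05, and 0.0268% without clone 8. PLA2G2A averaged 6.98 ± 0.31 in V2LHS_62673 (SD, n = 3) and 6.43 in V2LHS_62675, against 7.15 in wild type cells, a difference of -0.44 (95% interval -1.17 to 0.28). The widest difference was that of TMEM47, at 6.82 ± 0.51 in V2LHS_62673 (SD, n = 3) and 6.16 in V2LHS_62675, against 7.28 in wild type cells. It came to -0.80 (95% interval -1.93 to 0.34) with all clones and to -0.94 (95% interval -1.60 to -0.28) without clone 8, where its adjusted p in limma was 0.352. SLC16A4 lay the other way, higher in both constructs than in wild type cells by 0.72 (95% interval -0.56 to 2.00). LRRN1 (0.13, interval -0.43 to 0.69), LURAP1L (0.23, interval -0.52 to 0.97), SULT1C2 (0.06, interval -0.98 to 1.09), CELF2 (-0.03, interval -0.69 to 0.63) and KHDRBS3 (-0.20, interval -0.74 to 0.35) lay closer to 0. With all clones 4 of the 8 differences were below 0, against 41.4% over all genes, and without clone 8 there were also 4, against 46.2%. With all clones their median was 0.01, against 0.04 over all genes. Wild type cells are 1 array, whose spread is assumed to be that of the other groups, and the levels on both sides of this difference had a part in the choice of genes, so it is no independent test. For LRRN1, whose levels on both sides of this difference lie under the filter level, a value near 0 may be one between background levels. The same may hold in part for CELF2, whose levels there lay close to the filter level.

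The constructs were then compared with each other. The choice of genes did not use this difference as such. It did use the levels of both constructs, so the comparison is no independent test. SULT1C2 was lower in V2LHS_62675, at 6.78, than in V2LHS_62673, at 8.05 ± 0.54 (SD, n = 3), a difference of -1.27 (SE 0.44, 95% interval -2.30 to -0.23). The 3 arrays of V2LHS_62675, repeats of 1 clone, lay below the 3 clones of V2LHS_62673 without overlap. The same held for PLA2G2A and LURAP1L. The share of all genes with this pattern was not counted, so nothing is read from it. The difference missed the threshold with all clones (limma, adjusted p = 0.931) and passed without clone 8, at -1.49 (SE 0.31, adjusted p = 0.0403). Over the alternative settings its adjusted p ran from 0.0104 to 0.99. Without clone 9, the highest of the V2LHS_62673 clones, it was -0.97. None of the 8 genes passed with all clones, where 0% of all genes passed and 249 (2.22%) had an unadjusted p under 0.05. SULT1C2 was the 1 gene of the 8 that passed without clone 8, where 2.15% of all genes passed and 1.22% passed as lower in V2LHS_62675.

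PLA2G2A differed between the constructs by -0.56 (95% interval -1.28 to 0.17), LURAP1L by -0.52 (95% interval -1.27 to 0.22) and TMEM47 by -0.66 (95% interval -1.80 to 0.48). None of the 3 passed with or without clone 8. LRRN1 (-0.03, 95% interval -0.59 to 0.53), KHDRBS3 (-0.09, 95% interval -0.63 to 0.46), CELF2 (-0.16, 95% interval -0.81 to 0.50) and SLC16A4 (0.18, 95% interval -1.10 to 1.46) lay closer together. In all, 7 of 8 genes lay lower in V2LHS_62675 with all clones and 6 of 8 without clone 8, against 54.9% and 44.5% of all genes. Their median was -0.34 with all clones, against -0.05 over all genes, and -0.22 without clone 8, against 0.02. V2LHS_62675 enters as 1 clone, set against 3 clones, or 2 without clone 8. Its spread is assumed to be that of the other groups, and clone and construct cannot be told apart.

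**Figure D3:**
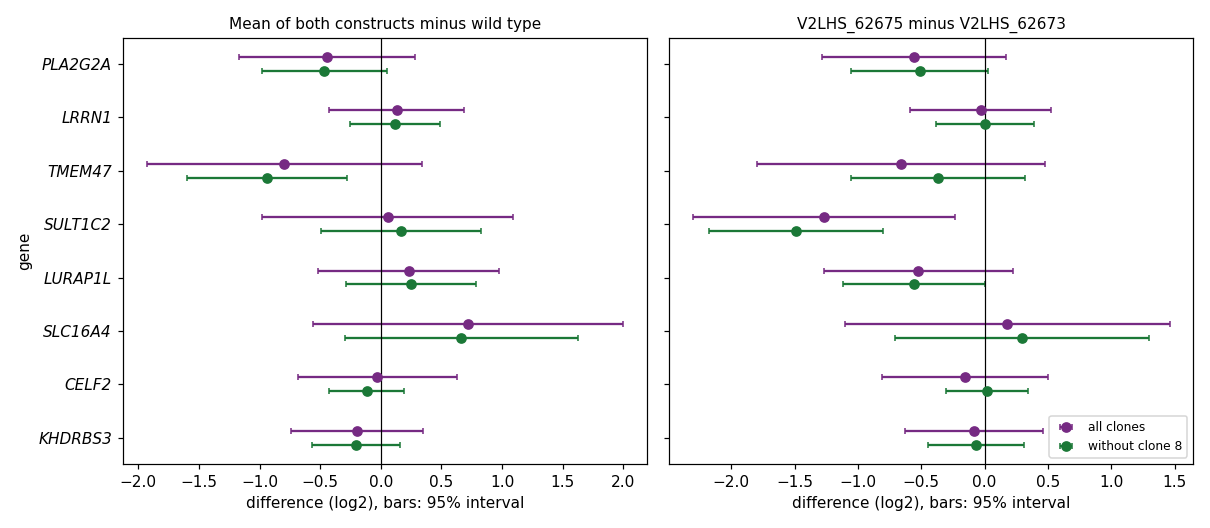
Differences among the groups other than empty vector for the 8 genes (vertical axis), in log2 units (horizontal axis), with 95% intervals of the limma fit, with all clones and without clone 8. Left, the mean of both constructs minus wild type cells; right, V2LHS_62675 minus V2LHS_62673, where SULT1C2 at -1.27 and -1.49 lies farthest from 0.

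The 3 empty vector clones did not carry the 8 genes to the same height. SULT1C2, LURAP1L and SLC16A4 were highest in clone 3 and lowest in clone 1, while TMEM47 was highest in clone 1 and lowest in clone 3. LRRN1 and CELF2 were highest in clone 1 and lowest in clone 2, and PLA2G2A and KHDRBS3 were highest in clone 2 and lowest in clone 3. The SD over the 3 clones was 0.82 for SLC16A4, 0.53 for TMEM47, 0.39 for SULT1C2 and 0.37 for LURAP1L. It was 0.26 for PLA2G2A, 0.21 for KHDRBS3, 0.16 for LRRN1 and 0.06 for CELF2. Leaving out empty vector clone 1 moved TMEM47 to -1.05 and SULT1C2 to -2.32, in opposite directions from their values with all clones. Clone 3 was the highest for 3 of the 8 genes, clone 1 for 3 and clone 2 for 2, against 44.8%, 28.3% and 26.9% of all genes, and clone 1 was the lowest for 3, against 33.5%. Each empty vector clone has 1 array. The repeat arrays of clone 2 had an SD of 0.18 for CELF2 and 0.16 for LRRN1. The order of the empty vector clones in CELF2 thus lies within the spread between arrays of a single clone. For PLA2G2A, SULT1C2 and SLC16A4 the SD of the repeat arrays was 0.17, 0.17 and 0.14. Their highest and next highest empty vector clones lay closer together than that, so which was highest is not resolved. For LRRN1 the spreads were about equal. Its levels on the arrays of clone 2 lay under the filter level, where the spread may be that of background.

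Across the 5 other clone-level samples, the correlation of a gene with the mean of the other 7 was 0.77 for PLA2G2A, 0.75 for LURAP1L, 0.60 for CELF2, 0.49 for KHDRBS3, 0.44 for SULT1C2, 0.37 for TMEM47, -0.07 for SLC16A4 and -0.30 for LRRN1, which lay under the filter level in all 5. Across all 8 samples it was 0.79 for TMEM47, 0.84 for SLC16A4 and up to 0.97 for PLA2G2A. These values describe 5 and 8 points that include the groups the genes were chosen on.

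Related genes were taken from lists built around each of the 8. They hold 207 genes, of which 126 were tested, and they served to see whether the relatives shared the difference between the other 3 groups and the empty vector clones. None of the 126 passed with all clones in limma, where 0% of all genes passed, and 4 of the 126 and 464 of all genes (4.14%) had an unadjusted p under 0.05. Without clone 8, 7 were lower and 1 was higher, where 4.05% and 3.03% of all genes were lower and higher. The median over the lists was 0.05 with all clones, against 0.03 over all genes.

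Among the splicing regulators listed with CELF2, 2 of 14 were lower and 1 higher without clone 8. MBNL2, a muscleblind splicing factor, averaged 10.06 in V2LHS_62673, 10.07 in V2LHS_62675 and 9.60 in wild type cells, against 10.81 in the empty vector clones. It was lower by -0.81 without clone 8 (adjusted p = 0.00316 in limma) and stood at -0.90 with all clones. The epithelial splicing regulator ESRP1 was lower (-0.41, adjusted p = 0.0309 in limma) and MBNL3 higher (0.47, adjusted p = 0.0247). PTBP3 stood at -0.20 without clone 8 and did not pass. Of the 18 KH domain genes listed with KHDRBS3, QKI, another member of its STAR family, was lower without clone 8 (-0.54, adjusted p = 0.0116 in limma), while PCBP4 (-0.25), KHSRP (0.21) and PCBP2 (0.11), also without clone 8, did not pass.

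Of the 8 monocarboxylate carriers and chaperones listed with SLC16A4, SLC16A13 was lower without clone 8 (-0.65, adjusted p = 0.0112 in limma), and so was SLC16A5 (-0.36, adjusted p = 0.0407), while SLC16A9 (0.19) and NPTN (0.17), without it too, did not pass. Of the 20 genes listed with TMEM47, the claudins CLDN12 (-0.49, adjusted p = 0.00967 in limma) and CLDN3 (-0.36, adjusted p = 0.0452) were lower without clone 8. CLDN7 stood at -0.26 and CLDN14 at 0.16 on the same scale, and neither passed.

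No relative of the other 4 genes passed with or without clone 8. The 25 phospholipase A2 and eicosanoid genes ran from -0.29 to 0.30 with all clones, with the phospholipase receptor PLA2R1 at -0.29, LTA4H at -0.23, PLA2G4F at 0.18 and PLA2G1B at 0.15. The 8 sulfotransferase and sulfate supply genes ran from -0.34 to 0.20, with BPNT1 at 0.20, TPST1 at -0.22, the donor carrier SLC35B2 at -0.34 and TPST2 at -0.15. The 15 leucine-rich repeat genes ran from -0.27 to 0.28, with AMIGO2 at -0.27, LRRN4 at 0.28, LRIG3 at 0.19 and LRRTM4 at 0.19. The 18 genes around LURAP1 ran from -0.07 to 0.31, with MYH9 at 0.31, CDC42 at 0.14, LIMK2 at 0.14 and CDC42EP2 at 0.18. In these families the gene chosen here lay outside the range of its tested relatives, as its choice for that difference would make it.

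The nearest tested genes on each side were read from the RefSeq gene order, 2 to a side, which gave 32 neighbours. Their median difference, other 3 groups minus empty vector, was 0.04, and 15 of 32 lay below 0, against 42.2% of all genes. PLA2G2A sits in a cluster of secreted phospholipases. Its neighbours PLA2G2E (0.09), PLA2G5 (0.10), PLA2G2D (0.03) and RNF186 (0.18) lay near 0. So did SETMAR (-0.01) and ITPR1 (-0.03) beside LRRN1, and RBM15 (0.09) and LAMTOR5 (-0.11) beside SLC16A4. No neighbour passed with all clones in limma, and without clone 8 there were 2, where 7.07% of all genes passed. NDRG1, a hypoxia-responsive gene listed beside KHDRBS3, was lower (-0.89, adjusted p = 0.0363), and NFIB, a transcription factor gene beside LURAP1L, was higher (0.64, adjusted p = 0.00627).

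**Figure D4:**
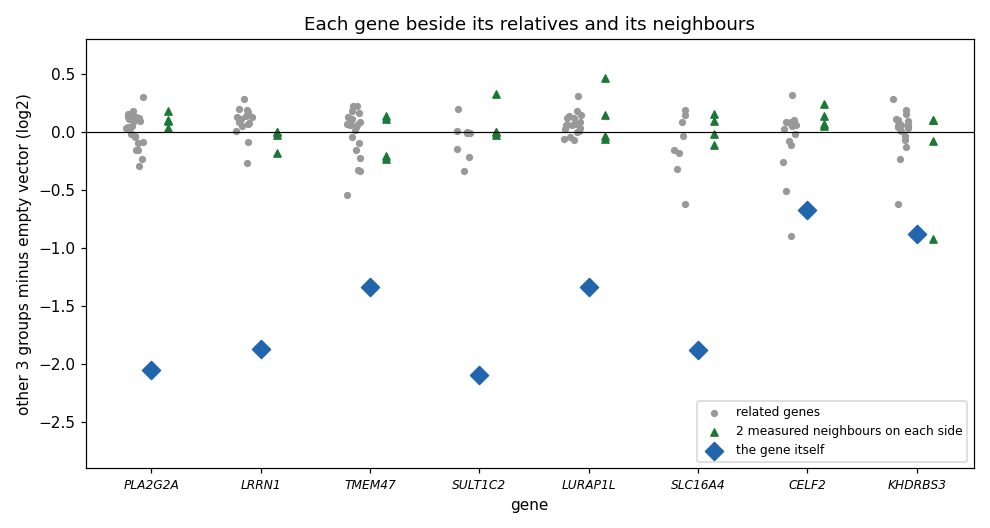
Other 3 groups minus empty vector (vertical axis, log2, all clones) for each of the 8 genes (diamonds), its tested relatives (grey points) and its 2 nearest tested neighbours on each side (triangles), by gene (horizontal axis). Neighbours run from -0.92 for NDRG1 beside KHDRBS3 to 0.46 for NFIB beside LURAP1L, and relatives from -0.90 to 0.32, while 6 of the 8 genes lie between -2.09 and -1.34.

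Ranked by the same difference among 11198 genes, SULT1C2, PLA2G2A, SLC16A4 and LRRN1 held places 1 to 4, LURAP1L and TMEM47 places 8 and 9, KHDRBS3 place 32 and CELF2 place 91. The 10 genes outside the 8 with the most negative difference were DDIT4, REG1A, TCP11L2, MAPRE3, INSIG1, ST6GALNAC2, YPEL5, SLC7A11, SLC33A2 and MUC13. None of these passed with all clones in limma, where 0% of all genes did, and 9 of 10 passed without clone 8, where 4.05% of all genes passed as lower, REG1A being the exception at an adjusted p of 0.078. INSIG1, the sterol-sensing regulator of cholesterol synthesis, had levels of 9.41, 9.60 and 9.53 in clones 8, 9 and 12, 8.45 in V2LHS_62675 and 8.64 in wild type cells, against 10.11, 10.25 and 10.21 in the empty vector clones. Its difference was -1.32 (SE 0.13), with an adjusted p in limma of 0.0635 with all clones and 4.25e-05 without clone 8.

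REG1A, a secreted lectin of the regenerating islet family, had levels of 6.88, 6.49 and 6.38 in clones of V2LHS_62673, 6.03 in V2LHS_62675 and 6.49 in wild type cells, against 6.25, 9.03 and 8.94 in empty vector clones 1, 2 and 3. It was thus high in 2 of the 3 empty vector clones. DDIT4, a stress-induced inhibitor of mTORC1 signalling, reached 9.86 in clone 8 and overlapped the empty vector clones, which stood at 8.98, 9.78 and 10.08. In 4 of the 10 genes, TCP11L2, MAPRE3, INSIG1 and YPEL5, all empty vector clones lay above the other 5 samples, a pattern seen in 3.72% of all genes. Empty vector clone 1 was the lowest of the 3 empty vector clones for 10 of these 10 genes. It was the lowest for 3 of the 8 and for 33.5% of all genes. At the other end, ZNF738 (1.01), TAS2R50 (0.94), CST7 (0.92), NUFIP1 (0.90) and EFHD1 (0.90) were the genes highest in the other groups relative to the empty vector clones. All 5 passed without clone 8, where 3.03% of all genes passed as higher, and none with all clones in limma. Both sets were taken from the ends of the difference that is tested, so nothing is read from these counts.

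The genes whose level most resembled the mean level of the 8 over the 8 clone-level samples, by Pearson correlation, were ID1, APBB3, PRR15, ZNF18, PIM1, KLHL36, ADA, ZC3H6, SMIM14 and TACC1, at 0.98 to 0.94. ID1, an inhibitor of basic helix-loop-helix transcription factors, had levels of 10.27, 10.31 and 10.13 in clones of V2LHS_62673, 9.90 in V2LHS_62675 and 10.01 in wild type cells, against 10.83, 10.84 and 11.04 in the empty vector clones. PIM1, a serine/threonine kinase, had group means of 9.24, 9.17 and 9.24 in the same low groups, against 9.61 in the empty vector clones. Without clone 8, 3 of the 10 were again among the 10 most alike, ID1, APBB3 and PIM1. The differences of these 10 genes from the empty vector clones, -0.85 to -0.37, were smaller than those of 7 of the 8. The correlations describe 8 points with the empty vector clones at one end, and no test goes with them.

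**Figure D5:**
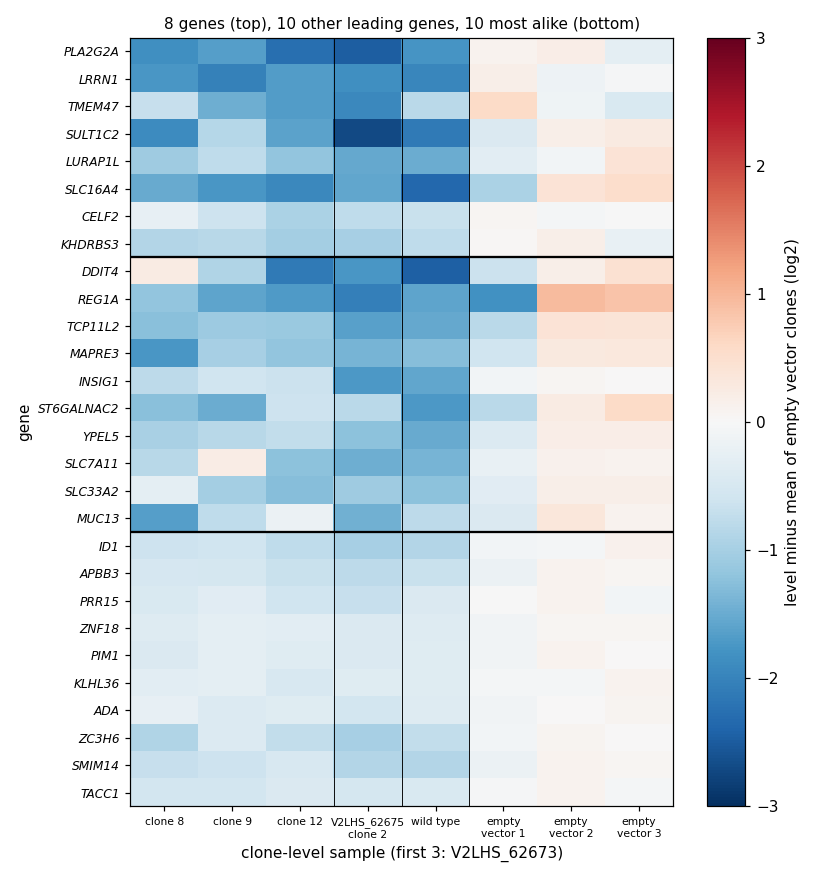
Level minus the mean of the empty vector clones (colour, log2) in each of the 8 clone-level samples (horizontal axis) for the 8 genes, the 10 other genes with the most negative difference and the 10 genes most like the 8 in profile (vertical axis, top to bottom). REG1A is low in empty vector clone 1 at 6.25, and DDIT4 is high in clone 8 at 9.86.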

How the data were processed

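RNA of DLD-1 cultures was depleted of ribosomal RNA, labelled as biotinylated cDNA and hybridised to 10 gene-level exon arrays, per the labels' protocols. The deposited values are log2 signals for 22011 probes. The log2 scale was read from their range, and how the authors corrected background, normalized and summarized probes is not stated. The values were used as deposited.

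A single symbol was annotated to 14432 probes, several to 2408 and none to 5171, and 14404 of the first matched RefSeq (GRCh38.p14) by gene identifier. Where a gene had several, the probe with the highest mean was taken. Genes averaging below the filter level of 5.96, the 25th percentile, were left out, which left 11198 and the shared LMNB1 probe. The 3 arrays of clone 2 were averaged. The 4 groups were fitted together in limma 3.58.1 (R 4.3.3) with lmFit and eBayes, two-sided, adjusted by Benjamini-Hochberg at 0.05, with 4 residual degrees of freedom with all clones and 3 without clone 8. The code was tested on simulated data with the same spread in all samples, where no sample stood apart as clone 8 does here.

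The 8 genes, the lists and the tests were chosen with earlier results of these data known. Named besides the 8 are the 10 most negative and 5 most positive others in the difference from the empty vector clones, up to 4 genes with the smallest p per related list, the 10 most alike in profile, and neighbours, 2 to a side. Alternatives covered scaling, the filter, the choice of probe, the prior, array weights, arrays as replicates, a replicate block and leaving out each sample.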

Additional observations from a re-analysis of the deposited data

How the results depend on the processing

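Counts of genes past the threshold depended mostly on clone 8. They were 0 with all clones in limma and, leaving out each sample in turn, ran from 0 to 792 for the other 3 groups minus empty vector, 0 to 3 for the constructs minus wild type and 0 to 241 for V2LHS_62675 minus V2LHS_62673, in each case with the highest count without clone 8 and 0 without any other sample. Array weights gave 878, 9 and 371 in the same order. The trended robust prior gave 1 gene in the first comparison and no filter gave 1 in the second. With every array as a replicate the counts between the other groups and empty vector and between the constructs were 11 and 15, and with the replicate number shared by V2LHS_62675 and empty vector arrays as a block besides they were 2 and 5. The numbers did not pair the samples: same-numbered arrays deviated from their group means with correlations of 0.03, -0.15 and -0.23. The cause of these changes was not tested. For the 8 genes, all differences from the empty vector clones kept their sign under every alternative in which the gene was tested. LRRN1, CELF2 and SULT1C2, and in 1 setting KHDRBS3, had differences among the other groups that changed sign between alternatives, none of them past the threshold. SULT1C2 between the constructs passed with array weights (-1.63, adjusted p = 0.0104 in limma) and without clone 8. The comparison with wild type cells was not run without wild type cells. The number of arrays, with 1 clone-level sample each for V2LHS_62675 and wild type cells, limits the precision.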
